A study of Homo sapiens with 4 samples.

Results

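The genes described here are 36 genes of the NRF2 pathway, glutathione metabolism, the thioredoxin system and the pentose phosphate pathway, taken by gene symbol from the 19475 symbols of the table. They were measured by mRNA sequencing in SKOV3, a long-established line of human ovarian cancer cells with no engineered allele given in the labels. The TCP group held 2 libraries of adherent cells on a tissue culture plate at day 0, and the polymer X group held 2 libraries of tumor spheroids grown for 8 days on plates coated with a polymer thin film named polymer X. In the study's methods, spheroids grew in serum replacement and were dissociated with accutase during culture, whereas the stock cells were kept in fetal bovine serum. The labels give a single protocol with serum replacement for all 4 libraries, so the medium of the TCP cells is uncertain. Substrate, culture time and possibly medium changed together and cannot be told apart, and fewer cells that express a gene cannot be told from less RNA per cell. Nothing in the labels says that the libraries of a group came from separate cultures, so the p-values measure only the spread between these libraries.

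NRF2, the protein of NFE2L2, is a transcription factor that turns on detoxifying and antioxidant genes. KEAP1 holds it at a low level by presenting it to a CUL3 ubiquitin ligase, so its activity is set largely at the protein level, and mRNA does not report it directly. Glutathione and thioredoxin are the main thiol reductants of the cell, both are recycled with NADPH, and the pentose phosphate pathway is a main source of that NADPH. Ovarian cancer cells are often treated with platinum drugs, and glutathione is known to bind these drugs.

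Values are FPKM, tags scaled to transcript length and library size, so levels of different genes can be set side by side per length. The number of tags recovered from the steps between values was 38403000 and 44917000 for TCP replicates 1 and 2, and 40029000 and 40684000 for polymer X replicates 1 and 2. At that depth, 3 tags on a transcript of 1000 bases stand for an FPKM of 0.0668 to 0.0781. Replicates correlated at 0.999 on TCP and 0.998 on polymer X across genes on the log2 scale. The cell line was checked with 9 epithelial or SKOV3 markers, whose summed FPKM was 640.5 to 654 on TCP and 1207 to 1257 on polymer X. The amplified ERBB2, KRT8, KRT18 and PAX8 stood at 48.8 or more in every library. EPCAM lay between 0.104 and 1.39, KRT19 between 0.338 and 0.734, and WT1 and MUC16 stayed at 0.421 or less. The sum rose with ERBB2, which went from 198 and 206 on TCP to 913 and 860 on polymer X. PAX8 was also higher on polymer X, whereas KRT8 went from 262 and 269 to 146 and 143. KRT18 and KRT7 were lower there too. Of the markers of other cells, the 4 leukocyte genes summed to 0.160 and 0.096 FPKM on TCP and to 0.823 and 0.962 on polymer X, where PTPRC went from 1 and 0 tags to 92 and 106. The 3 endothelial genes summed to 0.009 and 0.019 on TCP and to 0.617 and 0.489 on polymer X, where PECAM1 went from 0 tags in both libraries to 102 and 83. The 5 erythroid genes summed to 0 and 0.064 on TCP and to 0.209 and 0.127 on polymer X. Of these, the globins HBA1, HBA2 and HBB were listed at 0. The 5 fibroblast genes summed to 16.7 and 17.3 on TCP and to 62.4 and 57.0 on polymer X, but did not move together. COL1A2 went from 8.41 and 8.75 to 45.8 and 42.2, whereas COL1A1 went from 8.21 and 8.475 to 3.81 and 3.77. DCN went from 4 and 0 tags to 1203 and 1044, and COL3A1 from 0 and 10 tags to 1145 and 1007. PDGFRA stayed at 0.291 or less. The leukocyte, endothelial, erythroid and fibroblast sums were all higher on polymer X, and their part in the results was not tested.

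On polymer X, the glutathione-synthesis subunit gene GCLM, the quinone reductase gene NQO1, the thioredoxin reductase gene TXNRD1 and the peroxiredoxin gene PRDX1 were 2.68- to 4.84-fold lower than on TCP. The thioredoxin inhibitor gene TXNIP was 7.97-fold higher, catalase 2.47-fold higher and PRDX2 2.10-fold higher, while NFE2L2 itself stood at 31.2 ± 0.487 FPKM on TCP and 30.2 ± 1.19 on polymer X (SD, n = 2). A gene was called higher or lower with an adjusted p under 0.05 in limma on log2(FPKM + 1), Benjamini-Hochberg over 11964 genes, and a log2 fold change of 1 or more in size. Of the 36 genes, 33 were tested, and GPX2, GPX3 and AKR1B10 were below an FPKM of 1 and were not. GSTM3 passed the filter on low values through the polymer X libraries and 1 TCP library, where it stood near the limit. In all, 3 genes were called higher, or 9.09% of those tested, beside 10.7% of all genes tested. A further 7 were called lower, or 21.2%, beside 9.45% of all genes tested. After quantile normalization, 4 were called lower, or 12.1%, beside 8.53% of all genes tested. With no fold minimum, 6 were higher and 22 lower at an adjusted p under 0.05, where 37.4% and 43.6% of all genes tested were. The 2 groups of libraries did not overlap for 31 of the 33 genes, which held for 90.4% of all genes tested. The 33 genes had a median log2 fold change of -0.48 (SD 0.078 from the replicates), against -0.06 over all genes tested. Where only genes averaging 5 FPKM or more were kept, it was -0.50 for the 31 of these genes left and -0.20 for all 8166 genes. After quantile normalization the median of the 33 genes was -0.16, against -0.05 over all genes tested.

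**Figure D1:**
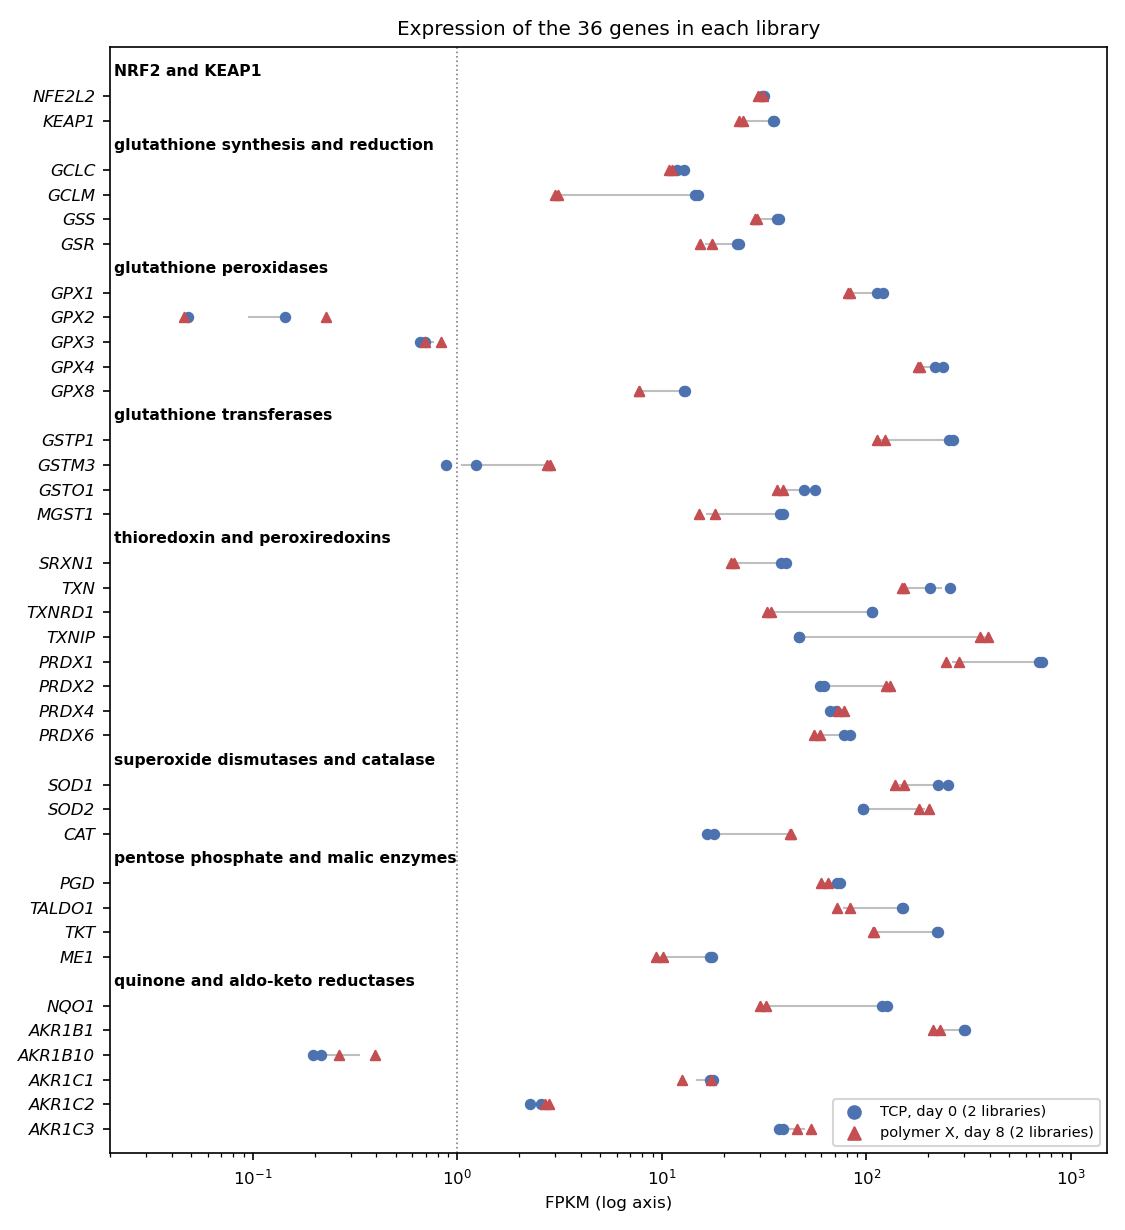
FPKM of the 36 genes in each of the 4 libraries on a log axis, ordered by role. Circles are the 2 TCP libraries, triangles the 2 polymer X libraries, a grey line joins the 2 group means and the dotted line marks an FPKM of 1. TXNIP moved from 46.9 and 47.0 to 391 and 358, GCLM from 14.5 and 15.0 to 3.09 and 2.99, and the 4 values of NFE2L2 lay on top of each other between 29.4 and 31.5.

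The order of the levels changed with these genes. On TCP the highest of the 36 was PRDX1 with 711 ± 15.0 FPKM, followed by AKR1B1 with 300.6 ± 1.502. On polymer X the highest was TXNIP with 374 ± 23.3, which had ranked 18 on TCP, and PRDX1 came next with 265 ± 27.7 (SD, n = 2 for each). NQO1 went from rank 9 to rank 20 and TXNRD1 from rank 11 to rank 19. The genes at the bottom of the order, GPX3, AKR1B10 and GPX2, kept ranks 34, 35 and 36.

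The antioxidant response element, to which NRF2 binds with a small MAF protein, has a core written TGACNNNGC. The core was searched on both strands of RefSeq promoters (GRCh38.p14, 250 bases before to 50 after each start). It overlaps the site of AP-1 factors, and the letters TGACTCA of that site lie within the matches of GSTP1 and ME1. Of 35116 promoters of all genes, 13.3% held a match, and 16.1% of all genes had a match in at least 1 promoter. RefSeq promoters were at hand for 30 of the 36 genes, not for GSS, GSR, PRDX1, PRDX6, SOD1 and AKR1B10. Of their 43 promoters, 10 held a match, which gave 9 of the 30 genes, or 30.0%. By call, matches stood in 4 of the 6 genes called lower that had a promoter (GCLM, GSTP1, MGST1 and TXNRD1), in 0 of the 3 called higher, and in 4 of the 19 that were not called (GSTO1, KEAP1, ME1 and PGD). The promoter of GPX2, which was not tested, also held a match. These counts are small, genes can have several promoters, and the difference between the calls was not tested. A match is a description of letters and not a bound site, and its absence says only that the letters are not in the window. The 250 bases before the start are given for the 3 genes called lower with a match there and for KEAP1, the repressor of NRF2, in lower case with each match that lies whole within them in capitals.
GCLM (chr1:93909431-93909680, minus strand): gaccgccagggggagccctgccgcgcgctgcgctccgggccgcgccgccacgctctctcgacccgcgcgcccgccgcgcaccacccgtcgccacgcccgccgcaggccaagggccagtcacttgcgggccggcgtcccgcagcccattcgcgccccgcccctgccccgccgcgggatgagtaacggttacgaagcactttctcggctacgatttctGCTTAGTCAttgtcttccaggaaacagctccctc
GSTP1 (chr11:67583562-67583811, plus strand): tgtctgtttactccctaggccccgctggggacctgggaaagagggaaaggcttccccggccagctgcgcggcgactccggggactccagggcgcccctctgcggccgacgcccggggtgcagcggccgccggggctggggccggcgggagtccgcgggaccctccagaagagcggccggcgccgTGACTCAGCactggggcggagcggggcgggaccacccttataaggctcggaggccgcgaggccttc
TXNRD1, upstream start (chr12:104215529-104215778, plus strand): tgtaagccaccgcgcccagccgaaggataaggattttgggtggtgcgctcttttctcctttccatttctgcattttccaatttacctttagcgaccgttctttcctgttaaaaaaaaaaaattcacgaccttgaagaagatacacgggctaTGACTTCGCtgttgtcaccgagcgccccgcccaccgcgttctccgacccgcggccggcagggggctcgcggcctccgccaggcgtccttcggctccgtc
TXNRD1, downstream start (chr12:104286782-104287031, plus strand): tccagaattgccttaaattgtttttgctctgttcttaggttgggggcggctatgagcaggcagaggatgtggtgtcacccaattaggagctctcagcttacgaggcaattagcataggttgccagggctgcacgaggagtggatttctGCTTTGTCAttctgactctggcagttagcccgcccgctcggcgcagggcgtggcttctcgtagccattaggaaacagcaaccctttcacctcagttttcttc
KEAP1 (chr19:10502772-10503021, minus strand): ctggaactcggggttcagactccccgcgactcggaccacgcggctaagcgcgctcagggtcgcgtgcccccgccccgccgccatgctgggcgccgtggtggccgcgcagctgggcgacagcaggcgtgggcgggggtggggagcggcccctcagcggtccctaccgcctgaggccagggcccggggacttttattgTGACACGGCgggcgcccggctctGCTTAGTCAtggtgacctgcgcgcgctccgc
The matches began 34 bases before the start in GCLM, 66 in GSTP1, 99 and 102 before the upstream and downstream starts of TXNRD1, and 54 and 31 in KEAP1. GCLM and KEAP1 shared the same 9 letters, GCTTAGTCA, near the start, though GCLM was 4.84-fold lower on polymer X and KEAP1 1.44-fold lower. A further match at the upstream start of TXNRD1, GCTCCGTCA, began 8 bases before the start and ran past it, so it is not in capitals. The match of MGST1 lies after the start and is not printed.

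The regulators NFE2L2 and KEAP1 were both left uncalled. NFE2L2 (hg19 chr2:178095031-178129859, minus strand) stood at 30.8 and 31.5 FPKM on TCP and at 31.1 and 29.4 on polymer X, so the groups overlapped. Its log2 fold change was -0.04 ± 0.057 (SE) with an adjusted p of 0.503, and between -0.04 and -0.02 for each of its 8 transcripts, but 0.21 with an adjusted p of 0.00477 after quantile normalization. KEAP1 (hg19 chr19:10596796-10613481, minus strand) stood at 35.0 and 35.2 on TCP and at 24.9 and 23.9 on polymer X. Both polymer X libraries were below both TCP libraries, at a log2 fold change of -0.51 ± 0.055 and an adjusted p of 1.97e-05, under the fold minimum. The ratio of NFE2L2 to KEAP1 mRNA was 0.887 ± 0.0102 on TCP and 1.24 ± 0.0134 on polymer X (SD, n = 2). Of the 9 other genes of this step, which hold the small MAF proteins that pair with NRF2, its competitor BACH1 and the parts of its turnover, limma called 0 in either direction, where 6 were higher and 2 lower at an unadjusted p under 0.05, which 82.0% of all genes tested reached. BACH1, a repressor that competes with NRF2 for the same element, stood at 4.93 and 5.09 on TCP and at 9.11 and 8.78 on polymer X, at a log2 fold change of 0.73 ± 0.066 (adjusted p = 5.78e-06). MAFG, a small MAF partner, had a log2 fold change of 0.14 ± 0.055 (adjusted p = 0.0349). SQSTM1, which binds KEAP1 and was named after its values were seen, lay just under the fold minimum (log2 fold change 0.999). It stood at 120.4 and 119.6 on TCP and 245 and 237 on polymer X. It was called in some of the alternatives, for example at 1.04 with a common median. The ratio of NFE2L2 to BACH1 mRNA was 6.22 ± 0.0484 on TCP and 3.38 ± 0.0447 on polymer X.

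In glutathione synthesis, the modifier subunit of glutamate-cysteine ligase fell and the catalytic subunit was not called. GCLM (hg19 chr1:94350756-94375154, minus strand), which encodes the modifier subunit that raises the activity of the enzyme, stood at 14.5 and 15.0 FPKM on TCP and at 3.09 and 2.99 on polymer X. Both spheroid libraries were far below both TCP libraries, and the replicates of each group were close together. The log2 fold change was -1.96 ± 0.065 with an adjusted p of 9.81e-09, and 1.37% of all genes tested had a lower one. GCLC, the catalytic subunit, stood at 11.8 and 12.9 on TCP and at 10.8 and 11.2 on polymer X, with a log2 fold change of -0.15 ± 0.065 and an adjusted p of 0.0564. The mRNA ratio of the catalytic to the modifier subunit was therefore 0.838 ± 0.0293 on TCP and 3.62 ± 0.159 on polymer X. Glutathione synthetase, GSS, which adds glycine and had the highest FPKM of the group, stood at 36.3 and 37.3 on TCP and at 28.4 and 29.2 on polymer X. GSR, the NADPH-dependent reductase of oxidized glutathione, stood at 23.4 and 23.9 on TCP and at 17.6 and 15.4 on polymer X. Both were lower on polymer X without overlap, at log2 fold changes of -0.35 ± 0.054 and -0.50 ± 0.070 that did not reach the fold minimum. After quantile normalization GSS was at -0.08 with an adjusted p of 0.214. SLC7A11, the cystine importer that feeds this step and is not among the 36 genes, was called lower, from 18.3 and 18.1 on TCP to 7.99 and 7.01 on polymer X (log2 fold change -1.18 ± 0.071, adjusted p = 3.76e-07).

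The glutathione peroxidases use glutathione to reduce peroxides. Of the 5 genes, 3 were tested, all 3 were lower on polymer X without overlap at an unadjusted p under 0.05 (GPX4 not after quantile normalization), and limma called 0. Of all genes tested, 90.4% had no overlap and 82.0% had such a p. GPX4, which reduces lipid hydroperoxides and is the main barrier to ferroptosis, had the highest FPKM of the group, at 235 and 215 on TCP and 183 and 178 on polymer X. Its log2 fold change of -0.32 ± 0.064 turned to 0.01 after quantile normalization. GPX1, the abundant cytosolic enzyme, stood at 119.8 and 113 on TCP and at 83.0 and 80.8 on polymer X. GPX8, an enzyme of the endoplasmic reticulum, stood at 13.0 and 12.8 on TCP and at 7.74 and 7.71 on polymer X (log2 fold change -0.67 ± 0.061). GPX3, the secreted form, lay between 0.653 and 0.830 in the 4 libraries. GPX2, the form of the gut lining, lay between 0.046 and 0.227, from 2 to 10 tags, and it overlaps CHURC1-FNTB on the opposite strand, which stood at 8.48 to 11.9.

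Among the glutathione transferases, which join glutathione to electrophiles, GSTP1 and MGST1 fell. GSTP1 (hg19 chr11:67351066-67354124, plus strand), the most abundant of the 4, stood at 265 and 254 FPKM on TCP and at 124 and 113 on polymer X. The groups were far apart, and the enzyme remained the highest of its group in every library. Its log2 fold change was -1.13 ± 0.066 (adjusted p = 2.99e-07), and -0.80 after quantile normalization, where it was not called. MGST1 (hg19 chr12:16500577-16517344, plus strand), a membrane-bound transferase with peroxidase activity, stood at 39.2 and 37.6 on TCP and at 18.2 and 15.2 on polymer X. Both polymer X libraries were below TCP, with a wider gap between them than between the TCP libraries. Its log2 fold change was -1.16 ± 0.081 (adjusted p = 9.84e-07), and it was not called after quantile normalization (-0.93) or with its longest transcript (-0.996). GSTO1, which belongs to the omega class, stood at 56.2 and 49.6 on TCP and at 39.2 and 36.6 on polymer X. GSTM3 was the gene with the opposite sign, at 1.23 and 0.882 on TCP and 2.84 and 2.73 on polymer X. Its log2 fold change of 0.88 ± 0.097 was not called, but it was called at 1.01 without TCP replicate 1 and at 1.33 with a pseudocount of 0.1. Genes of the GSTM family are near copies of each other, so how their tags were divided is uncertain.

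The thioredoxin system held the gene that rose most and several of those that fell. TXNIP (hg19 chr1:145438438-145442644, plus strand), which binds thioredoxin and blocks it and also limits glucose uptake, stood at 46.9 and 47.0 FPKM on TCP and at 391 and 358 on polymer X. Every polymer X value was several times every TCP value. The log2 fold change was 2.97 ± 0.062 (adjusted p = 1.05e-09), and 99.4% of all genes tested had a lower one. No other of the 36 genes moved by 2 or more on the scale of log2(FPKM + 1), although GCLM did, at -2.24, with a pseudocount of 0.1. Genes of the NBPF family span this locus in the annotation, but none of the 3 exceeded 0.809 in any library. Thioredoxin itself, TXN, stood at 256 and 205 on TCP and at 152 and 148 on polymer X, with the wider spread on TCP. Its log2 fold change was -0.61 ± 0.094 (adjusted p = 2.32e-04), so the mRNA ratio of the inhibitor to thioredoxin was 0.206 ± 0.0323 on TCP and 2.49 ± 0.114 on polymer X.

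TXNRD1 (hg19 chr12:104680460-104744085, plus strand), the NADPH-dependent reductase that recharges thioredoxin, stood at 106.5 and 106.8 FPKM on TCP and at 34.0 and 32.8 on polymer X. Replicates nearly coincided and the groups were 3.20-fold apart. The log2 fold change was -1.65 ± 0.054 (adjusted p = 8.55e-09), and it lay between -1.66 and -1.63 for each of its 7 transcripts, which share tags. SRXN1, sulfiredoxin, which repairs overoxidized peroxiredoxins, stood at 40.2 and 38.2 on TCP and at 22.4 and 21.8 on polymer X, at a log2 fold change of -0.80 ± 0.057 that did not reach the fold minimum.

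The peroxiredoxins, which use thioredoxin to reduce hydrogen peroxide, moved in different directions. PRDX1 (hg19 chr1:45976707-45987610, minus strand), the abundant cytosolic form, stood at 722 and 700.4 FPKM on TCP and at 285 and 246 on polymer X. It fell by 1.42 ± 0.080 on the log2 scale (adjusted p = 2.45e-07). PRDX2 (hg19 chr19:12907634-12912724, minus strand), its close cytosolic relative and abundant in red cells, stood at 61.9 and 59.4 on TCP and at 131 and 124 on polymer X. It rose by 1.06 ± 0.058 on the log2 scale (adjusted p = 1.91e-07), while the globin genes were listed at 0 in all 4 libraries. The mRNA ratio of PRDX1 to PRDX2 was 11.7 ± 0.0901 on TCP and 2.08 ± 0.138 on polymer X. PRDX4, the form of the endoplasmic reticulum, stood at 70.8 and 66.1 on TCP and at 77.4 and 72.9 on polymer X (log2 fold change 0.13, adjusted p = 0.069), and its log2 fold change was 0.46 with an adjusted p of 3.19e-05 after quantile normalization. PRDX6, which works with glutathione, stood at 82.8 and 78.0 on TCP and at 59.2 and 55.3 on polymer X. PRDX1 made up 77.0% and 77.5% of the summed FPKM of these 4 genes on TCP and 51.5% and 49.3% on polymer X.

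**Figure D2:**
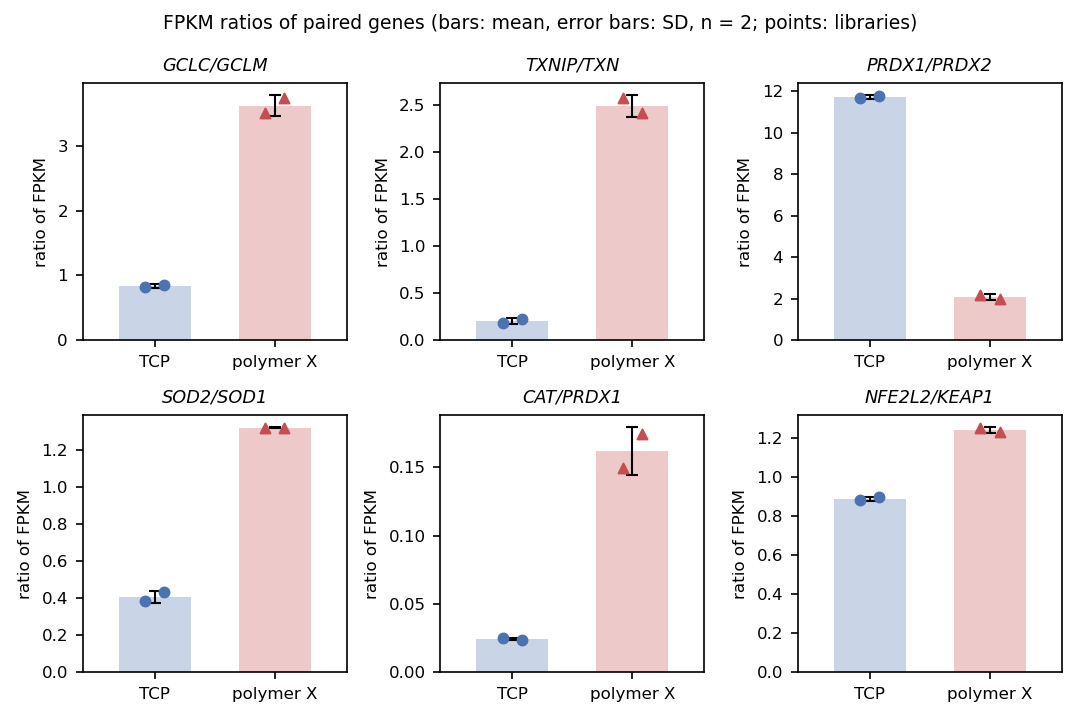
Ratio of the FPKM of a pair of genes in each library, with TCP on the left and polymer X on the right of each panel. Bars are means, error bars SD (n = 2) and points libraries. GCLC/GCLM went from 0.838 to 3.62, TXNIP/TXN from 0.206 to 2.49, PRDX1/PRDX2 from 11.7 to 2.08, SOD2/SOD1 from 0.408 to 1.32, CAT/PRDX1 from 0.0243 to 0.161 and NFE2L2/KEAP1 from 0.887 to 1.24.

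Among the enzymes that remove superoxide and peroxide without a thiol, catalase rose. CAT (hg19 chr11:34460472-34493607, plus strand), the peroxisomal enzyme that splits hydrogen peroxide, stood at 17.9 and 16.6 FPKM on TCP and at 42.5 and 42.7 on polymer X. Replicates of both groups were close, and the groups did not overlap. The log2 fold change was 1.26 ± 0.059 (adjusted p = 7.60e-08). Since PRDX1 fell, the ratio of catalase to PRDX1 mRNA was 0.0243 ± 0.000782 on TCP and 0.161 ± 0.0175 on polymer X. SOD2 (hg19 chr6:160100096-160114360, minus strand), the manganese superoxide dismutase of mitochondria, stood at 96.4 and 96.2 on TCP and at 202 and 181 on polymer X. Its log2 fold change of 0.98 ± 0.066 (adjusted p = 7.87e-07) lay just under the fold minimum, and it was called at 1.06 without polymer X replicate 2. It was also called at 1.31 after quantile normalization, at 1.02 with a common median, at 1.15 with summed transcripts and at 1.23 with its longest transcript. All 9 of its transcripts were higher on polymer X, 5 of them by at least 1 on the log2 scale. SOD1, the cytosolic copper and zinc enzyme, had the opposite sign, at 250.5 and 223 on TCP and 153 and 137 on polymer X (log2 fold change -0.70 ± 0.077). The ratio of SOD2 to SOD1 mRNA went from 0.408 ± 0.0327 to 1.32 ± 0.0023, so that the mitochondrial form became the more abundant mRNA on polymer X.

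The 4 genes of the pentose phosphate pathway and malic enzyme were lower on polymer X, except that PGD was not after quantile normalization, and the transketolase gene was called. TKT (hg19 chr3:53259653-53290130, minus strand), which moves carbon units between sugars in the non-oxidative branch, stood at 224 and 220.2 FPKM on TCP and at 109 and 107.8 on polymer X. The groups were far apart next to the gap between replicates. Its log2 fold change was -1.03 ± 0.055 (adjusted p = 1.75e-07), close to the fold minimum, and it was not called at -0.68 after quantile normalization or at -0.99 with a common median. TALDO1, transaldolase of the same branch, stood at 150.7 and 149 on TCP and at 83.1 and 71.8 on polymer X. Its log2 fold change of -0.95 ± 0.073 (adjusted p = 1.83e-06) was not called, but it was called at -1.05 without polymer X replicate 1. PGD, which yields NADPH in the oxidative branch, stood at 71.4 and 74.4 on TCP and at 64.6 and 59.7 on polymer X, at a log2 fold change of -0.23 ± 0.060 that turned to 0.11 after quantile normalization. ME1, the cytosolic malic enzyme that also yields NADPH, stood at 17.6 and 17.3 on TCP and at 10.1 and 9.35 on polymer X (log2 fold change -0.78 ± 0.062). The ratio of TKT to PGD mRNA was 3.05 ± 0.128 on TCP and 1.75 ± 0.0844 on polymer X.

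Beyond these 4, H6PD, an enzyme of the endoplasmic reticulum that yields NADPH there, was called higher, from 3.78 and 4.19 on TCP to 16.0 and 15.4 on polymer X (log2 fold change 1.75 ± 0.069, adjusted p = 2.68e-08). MTHFD1 and MTHFD2, folate enzymes that form or use NADPH or NADH, were called lower, at log2 fold changes of -1.75 ± 0.067 and -1.25 ± 0.057. Of the 15 tested genes of this wider NADPH list, 1 was called higher and 2 lower, or 6.67% and 13.3%, beside 10.7% and 9.45% of all genes tested.

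**Figure D3:**
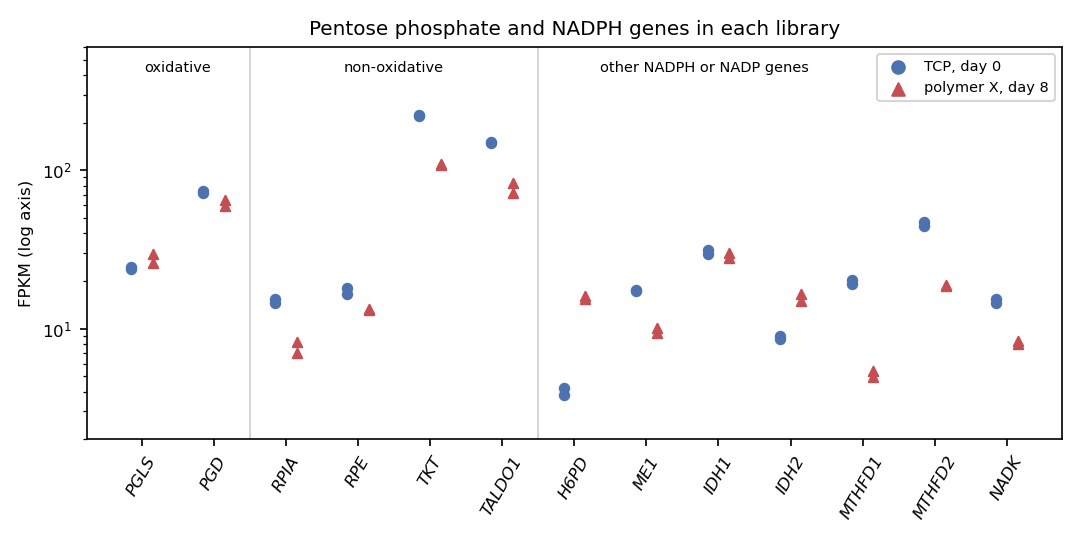
FPKM on a log axis of genes of the oxidative branch, the non-oxidative branch and other NADPH or NADP enzymes in each library. Circles are TCP and triangles polymer X (2 libraries each). TKT went from 224 and 220.2 to 109 and 107.8 and ME1 from 17.6 and 17.3 to 10.1 and 9.35, while H6PD went from 3.78 and 4.19 to 16.0 and 15.4.

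In the last group, NQO1 fell and the aldo-keto reductases did not move together. NQO1 (hg19 chr16:69743304-69760533, minus strand), which reduces quinones with NADPH or NADH and is the standard readout of NRF2 activity, stood at 126 and 119.5 FPKM on TCP and at 32.3 and 30.1 on polymer X. Both polymer X libraries were well below both TCP libraries. The log2 fold change was -1.95 ± 0.060 (adjusted p = 6.80e-09), and it lay between -1.97 and -1.95 for its 4 transcripts. AKR1B1, aldose reductase and the highest of the group, stood at 299.5 and 302 on TCP and at 229.8 and 210.5 on polymer X (log2 fold change -0.45 ± 0.065), and its log2 fold change was -0.14 with an adjusted p of 0.0785 after quantile normalization. AKR1C3, which also reduces steroids and prostaglandins, stood at 39.2 and 37.2 on TCP and at 53.6 and 45.5 on polymer X (log2 fold change 0.36 ± 0.078, adjusted p = 0.00184). AKR1C1 stood at 17.2 and 17.8 on TCP and at 17.3 and 12.51 on polymer X, so its groups overlapped (adjusted p = 0.094). AKR1C2 lay between 2.26 and 2.81 in all libraries (adjusted p = 0.156), at a log2 fold change of 0.13 that turned to -0.10 after quantile normalization. AKR1B10, often among the strongest NRF2 targets, stayed between 0.197 and 0.394. The AKR1C genes are near copies of each other, so tags may have been shared among them.

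**Figure D4:**
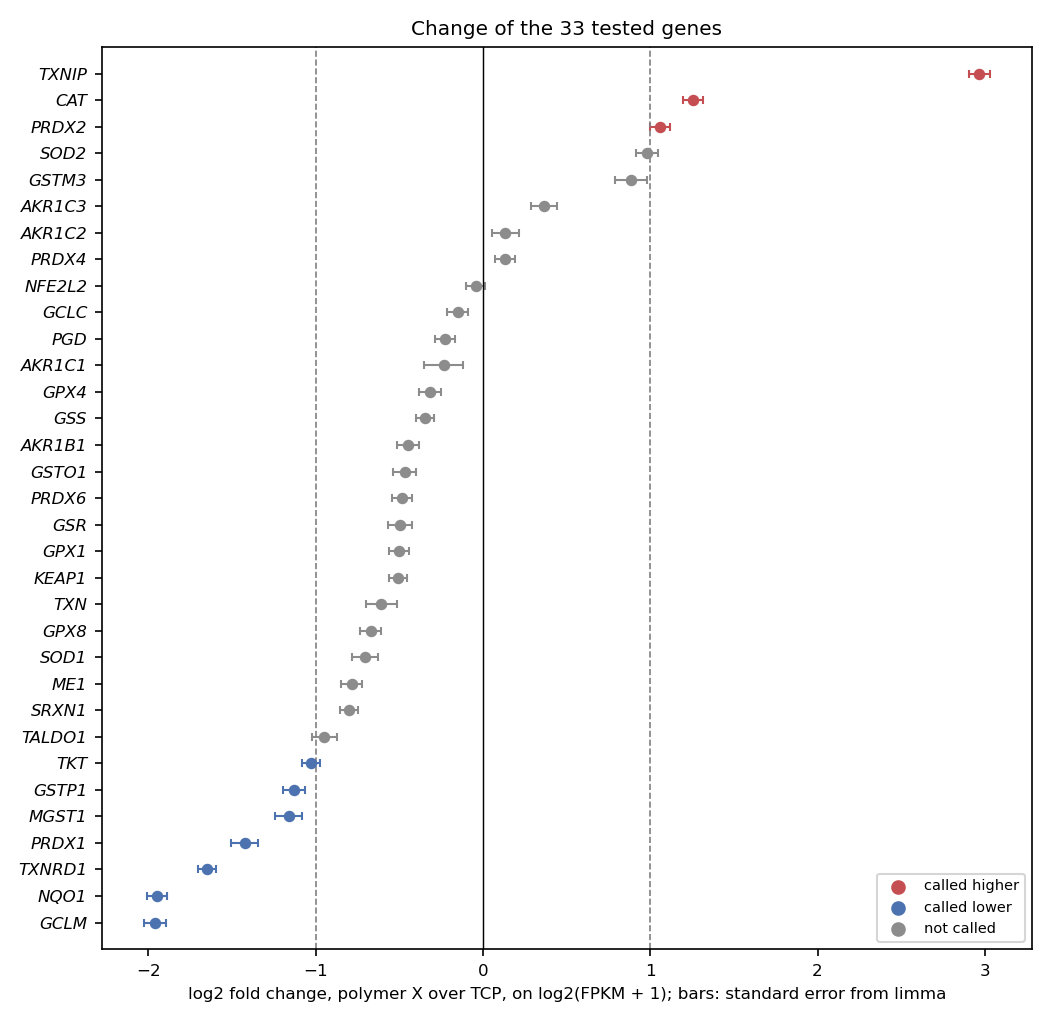
Log2 fold change, polymer X over TCP on the scale of log2(FPKM + 1), of the 33 genes tested, with standard errors from limma. The dashed lines mark the fold minimum of 1 in either direction. TXNIP stands alone at 2.97, CAT and PRDX2 follow at 1.26 and 1.06, SOD2 and TALDO1 lie just inside the lines at 0.98 and -0.95, and GCLM and NQO1 mark the lower end at -1.96 and -1.95.

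Of the 36 genes, 17 were taken as NRF2 targets from general knowledge of the pathway. They were NQO1, GCLC, GCLM, GSR, GPX2, SRXN1, TXN, TXNRD1, PRDX1, ME1, PGD, TALDO1, TKT, AKR1B10, AKR1C1, AKR1C2 and AKR1C3. Of the 15 tested, limma called 0 higher and 5 lower (GCLM, NQO1, TXNRD1, PRDX1 and TKT), or 33.3% lower beside 9.45% of all genes tested. At an unadjusted p under 0.05, 1 was higher and 12 lower, beside 82.0% of all genes tested in either direction. Their median log2 fold change was -0.78. Among the 18 other genes tested, 3 were called higher and 2 lower (GSTP1 and MGST1), or 16.7% and 11.1%, with a median of -0.40. The list of targets was drawn up with earlier results of these data known, and other lists could place genes differently. Of the genes left outside it, GSTP1 and MGST1 also held a match to the core. The difference between the listed targets and the other genes was not tested. Of 17 other NRF2 targets outside the 36 genes, which belong to the wider list below, 16 were tested. Among these 16, limma called 2 higher (ABCC3 and FTH1) and 1 lower (SLC7A11), beside 10.7% and 9.45% of all genes tested. Their log2 fold changes were above 0 for 8 and below 0 for 8, with a median of -0.02. Lower calls made up 33.3% of the targets tested among the 36 genes and 6.25% of these 16, a difference that was not tested. With no fold minimum, limma gave 7 of the 16 higher and 6 lower at an adjusted p under 0.05. Of all genes tested, 37.4% and 43.6% were.

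A further 96 genes of the same pathways, listed by name, were looked at for the wider picture. Of the 75 tested, 9 were called higher and 9 lower, or 12.0% in each direction beside 10.7% and 9.45% of all genes tested. Their median log2 fold change was 0.13, against -0.06 over all genes tested. HMOX1, heme oxygenase, which answers to NRF2 and BACH1, stood at 21.7 and 23.0 FPKM on TCP and at 10.9 and 11.1 on polymer X. Its log2 fold change was -0.96 ± 0.060 (adjusted p = 4.92e-07), just under the fold minimum, and it was called at -1.01 with a pseudocount of 0.1. The genes called higher with the largest change, beside H6PD, were SOD3, ABCC3, GSTM2 and GLRX. SOD3, the secreted superoxide dismutase, went from 0.973 and 0.847 to 11.0 and 9.88, and ABCC3, an exporter of glutathione conjugates, from 5.11 and 4.75 to 22.9 and 22.05. GSTM2, another glutathione transferase, went from 0.284 and 0.131 to 2.64 and 3.32, and GLRX, cytosolic glutaredoxin, from 3.94 and 4.27 to 14.2 and 16.5. SOD3 and GSTM2 passed the filter through the polymer X libraries alone, so they could enter the test only by being high there. The genes called lower with the largest change, beside MTHFD1 and MTHFD2, were CHAC2, GGCT and GLRX2, of which the first breaks down glutathione and the second takes up its gamma-glutamyl products. CHAC2 went from 7.68 and 7.31 to 1.36 and 0.742 and passed the filter through TCP and 1 polymer X library. GGCT went from 28.7 and 27.6 to 9.40 and 7.67, and GLRX2, a glutaredoxin of mitochondria, from 16.5 and 12.45 to 4.46 and 4.21. Of the 19 other glutathione enzymes tested, 5 were called higher and 6 lower, or 26.3% and 31.6% beside 10.7% and 9.45% of all genes tested, and these calls include GSTM2 and CHAC2.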

How the data were processed

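mRNA libraries of SKOV3 cells were analysed in 2 groups taken from the sample titles, TCP at day 0 and polymer X at day 8, with 2 libraries each. The deposited FPKM values were made by the authors with HOMER for 50078 RefSeq transcripts of hg19, per the file headers from tags on exons of both strands. The submitters' processing notes also list STAR 2.4.0 and DESeq. The counting did not use strand, so overlapping genes share tags, as do transcripts of a gene. Low values were whole multiples of 1 tag per library (100.0% within 0.1), which gave the depth, and limits from tags cover counting error only.

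Of the 19475 symbols, 10500 had several transcripts, and the one highest on average over the 4 libraries stood for the gene. The filter asked for 1 FPKM or more in 2 or more libraries, and limma 3.58.1 (R 4.3.3) was fitted to log2(FPKM + 1) with a variance trend and no replicate block. Fold changes on this scale understate the change of genes with low FPKM. Errors are SD of libraries or SE of the fit. With 2 libraries against 2, the smallest two-sided p of an exact permutation test is 0.333, so the adjusted p-values draw on a spread estimated by limma from all genes together. Same-numbered libraries deviated together with a correlation of 0.0927, and nothing in the labels pairs them. The chi-square between replicates averaged 5.11 per gene on TCP and 5.83 per gene on polymer X, more than counting error gives.

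The members and lists were chosen with earlier results of these data known. The text gives every member in its role group, with library values for NFE2L2, KEAP1 and those called, for uncalled ones in the same step or with the highest FPKM of their role, and for the others where their data add to the account. Of the other pathway genes it names the 5 called with the largest change in each direction, and HMOX1, SLC7A11, MAFG and BACH1, and 1 further gene of that rule is not reported here. Other genes were picked with their values known. The results were recomputed with a pseudocount of 0.1, without the filter or with genes averaging 5 FPKM or more, with other scalings, transcripts and fold minimums, no variance trend, the replicate block and each library left out in turn. Promoters came from RefSeq (GRCh38.p14) and were matched by symbol, and other coordinates are those of hg19. Plots were drawn with matplotlib 3.10.9.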

Additional observations from a re-analysis of the deposited data

How the results depend on the processing

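With no fold change minimum, 6 of the 33 genes tested were called higher and 22 lower, beside 37.4% and 43.6% of all genes tested. Of the 75 other pathway genes tested, 35 were then called higher and 29 lower. With a minimum of 2 on the log2 scale, 1 of the 33 genes (TXNIP) was called higher and 0 lower. Of all genes tested, 2.35% and 1.25% were. At an unadjusted p under 0.05 in limma, 23 of the 33 were lower, beside 82.0% of all genes tested in either direction. Of the other pathway genes, 1 was called higher and 1 lower at the minimum of 2. After quantile normalization, 4 genes were called lower instead of 7 (GSTP1, MGST1 and TKT were lost) and the 33 genes had a median log2 fold change of -0.16 instead of -0.48, and the uncalled values of NFE2L2, GPX4, PGD and AKR1C2 changed sign. The cause was not tested. With a library left out, 3 to 4 of the genes were called higher and 7 to 8 lower, at a median of -0.52 to -0.42, and 10 to 12 of the other pathway genes were called higher and 8 to 10 lower. Among the 36 genes, the calls that appeared with a library left out were those of GSTM3, TALDO1 and SOD2, given with their values above. In such fits the lone library of a group is assumed to vary like the other group. With the replicate block, 3 genes were called higher and 7 lower as without it, and no call on a single gene of the 36 changed, although GCLC, PRDX4 and AKR1C1 then had adjusted p of 0.0443, 0.0273 and 0.00721 by limma. Of all genes tested, 1285 were called higher and 1131 lower, against 702 and 960 with a mean FPKM of at least 5 (42.2% of calls higher, against 53.2%). Across the alternatives other than the 2 fold minimums, 414 of 427 values for single genes of the 36 kept their side of the call, 8 became called and 5 lost it, and no called gene reversed. Depth limits GPX2, at 2 to 10 tags, and GSTM3, near the filter.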

Other observations

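Some genes of the wider list that were chosen after their values were seen differed in sign or size within a family. Among the mitochondrial peroxiredoxins, PRDX3 stood at 82.5 and 72.3 FPKM on TCP and at 45.2 and 41.3 on polymer X, whereas PRDX5 stood at 172 and 157 on TCP and at 289 and 283.5 on polymer X. Neither was called, at log2 fold changes of -0.82 ± 0.075 (adjusted p = 5.90e-06) and 0.79 ± 0.065 (adjusted p = 2.76e-06, by limma), and PRDX5 was called at 1.11 after quantile normalization. CCS, the copper chaperone of SOD1, stood at 10.5 and 9.72 on TCP and at 18.7 and 18.4 on polymer X, while SOD1 itself was lower there. Of the ferritin chains, FTH1 was called higher, from 2994 and 3027 FPKM to 9302 and 9385 (log2 fold change 1.63 ± 0.099), but not after quantile normalization (0.43, adjusted p = 0.108), and FTL stood at 774 and 716 on TCP and at 756 and 760.5 on polymer X.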
